A study of Mus musculus with 4 samples.

Results

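The 5 AP-1 genes Fos, Fosb, Jun, Junb and Jund are the nearest named genes of 6 CHD4 intervals, out of 1849 intervals and 1517 named genes in the deposited peak list. They were found by the gene symbol that the authors' annotation gives to each peak, which is that of the nearest transcript start, and rows with the same position were counted as 1 interval. Junb has 2 intervals and each of the other genes 1, and every one of the 6 has a single summit. The genes were chosen by their presence in this list, that is, by a CHD4 signal that passed the caller's threshold over IgG, so their presence and their values are given as a description and not as a test.

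CHD4 was mapped by CUT&Tag, in which an antibody directs a transposase to the chromatin around a protein so that the DNA beside it is cut and tagged. The CHD4 group has 2 samples made with the antibody ab70469, and the control group has 2 samples labelled igG, whose antibody is given as Rabbit Anti-Mouse IgG H&L (HRP), ab6728. All 4 samples are wild-type C57BL/6 mouse cells that the labels call spermatogonial, with no treatment, and the labels give no age. The protocol starts from testes digested into single cells, and the labels do not say how the spermatogonia were purified from them. The peak list is 1 call of CHD4 against IgG, so it has no value for a single sample, no error between the replicates can be given, and no interval has a replicate check.

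AP-1 is a dimer of basic leucine zipper (bZIP) proteins. The JUN proteins pair with each other or with FOS proteins, while FOS proteins need a JUN partner to bind DNA. Fos, Fosb, Jun and Junb are immediate early genes: growth factors and stress switch them on within minutes through the ERK and JNK kinases and the factors SRF and CREB at their promoters. In cultured spermatogonial stem cells, Fos is known to respond to GDNF, the growth factor of self-renewal, through RAS and ERK. CHD4 is the ATPase of NuRD, a complex that slides nucleosomes and removes acetyl groups from histones, and it is found at active promoters and enhancers as well as at silent genes.

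The proximal promoters of these genes are short stretches in which several factor sites lie close together, and they are shown because no CHD4 interval reached them. Each line gives the 250 bases before the gene's start in RefSeq's GRCm38.p6 promoter table, 5′ to 3′ on the coding strand. The table has the coordinates of mm10. Capitals mark matches, on either strand, to TGACTCA (the TPA response element, which AP-1 itself binds), TGACGTCA (the cAMP response element), its core TGACGT, the CArG box by name (the SRF site), CCAAT (the CCAAT box), GGGCGG (the GC box), TATAAA (the TATA box) and CCGGAAG (an ETS site). TGACGT is contained in TGACGTCA.
Fos: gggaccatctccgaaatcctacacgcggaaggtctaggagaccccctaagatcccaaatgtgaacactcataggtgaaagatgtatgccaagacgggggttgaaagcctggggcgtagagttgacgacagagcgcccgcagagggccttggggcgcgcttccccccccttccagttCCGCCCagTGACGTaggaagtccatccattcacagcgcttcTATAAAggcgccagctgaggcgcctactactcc
Fosb: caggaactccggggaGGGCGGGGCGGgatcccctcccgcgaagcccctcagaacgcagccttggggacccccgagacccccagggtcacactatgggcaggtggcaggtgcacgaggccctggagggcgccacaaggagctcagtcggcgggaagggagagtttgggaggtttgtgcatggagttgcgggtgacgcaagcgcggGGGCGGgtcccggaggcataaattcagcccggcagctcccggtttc
Jun: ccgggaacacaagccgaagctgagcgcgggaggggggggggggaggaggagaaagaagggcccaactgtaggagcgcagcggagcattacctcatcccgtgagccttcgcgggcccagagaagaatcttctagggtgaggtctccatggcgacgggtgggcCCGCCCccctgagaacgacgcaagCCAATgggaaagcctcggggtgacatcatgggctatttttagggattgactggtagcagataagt
Junb: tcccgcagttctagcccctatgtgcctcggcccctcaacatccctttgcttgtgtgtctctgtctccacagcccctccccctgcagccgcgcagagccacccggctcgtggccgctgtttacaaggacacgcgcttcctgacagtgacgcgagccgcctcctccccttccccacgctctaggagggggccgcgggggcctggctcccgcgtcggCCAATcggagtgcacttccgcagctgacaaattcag

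The windows are, in the same order, chr12:85473640-85473889 (+), chr7:19310046-19310295 (−), chr4:95052223-95052472 (−) and chr8:84978749-84978998 (−). The Fos window held the core TGACGT 66 to 61 bases before the start and TATAAA at 33 to 28, with a GC box between 74 and 69. TGACGT was in 6.56% of the 27025 promoter windows of this length and TATAAA in 13%. The Jun window held 1 CCAAT box, at 65 to 61 bases, and 1 GC box, and the Junb window held 1 CCAAT box, at 36 to 32. CCAAT was in 34.5% of all windows. Fosb had 3 GC boxes, 2 of them overlapping, against 32.9% of windows with any. For Fosb the promoter table puts the start at 19310045, inside the RefSeq gene body, which runs from 19302696 to 19310118. Part of its window, with the GC box 46 to 41 bases before that start, therefore lies within the gene. Neither TGACTCA (4.43% of windows) nor a CArG box (1.4%) was found in any of the 4, which says only that these letters are not in the windows shown. The 4 windows had 58.4% to 68.8% G and C, against a median of 52% over all windows. RefSeq places the start of Junb 30 bases before the transcript start used by the authors, and a TATAAA begins at the RefSeq start itself, so it lies just outside the bases shown. The RefSeq start of Jund is 1.21 kb before the one the authors used, so its window is not the sequence before their start and is not shown. The closest window to an interval was that of Junb, at 647 bases, and the farthest of the 4 was that of Jun, at 52943 bases.

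No interval touched the body of any of the 5 genes, and they lay on both sides of them. Measured from the RefSeq gene start in the direction of transcription, 3 intervals were upstream (Jun, Fosb and 1 of Junb) and 3 were beyond the 3′ end (Fos, Jund and the other of Junb). Across the list, 513 of the 1328 protein-coding genes named for an interval (38.6%) had none of their intervals in the body. An interval overlapped the body of 4.26% of protein-coding genes, and 6.07% were named for an interval. With q under 0.01, 4 of the 5 AP-1 genes (all but Fos) and 4.77% of protein-coding genes were named. Among the AP-1 genes, 1 was named for an interval within 1 kb of a transcript start (Junb), against 2.55% of protein-coding genes, and the choice of genes from this list means that nothing can be read from these shares.

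**Figure D1:**
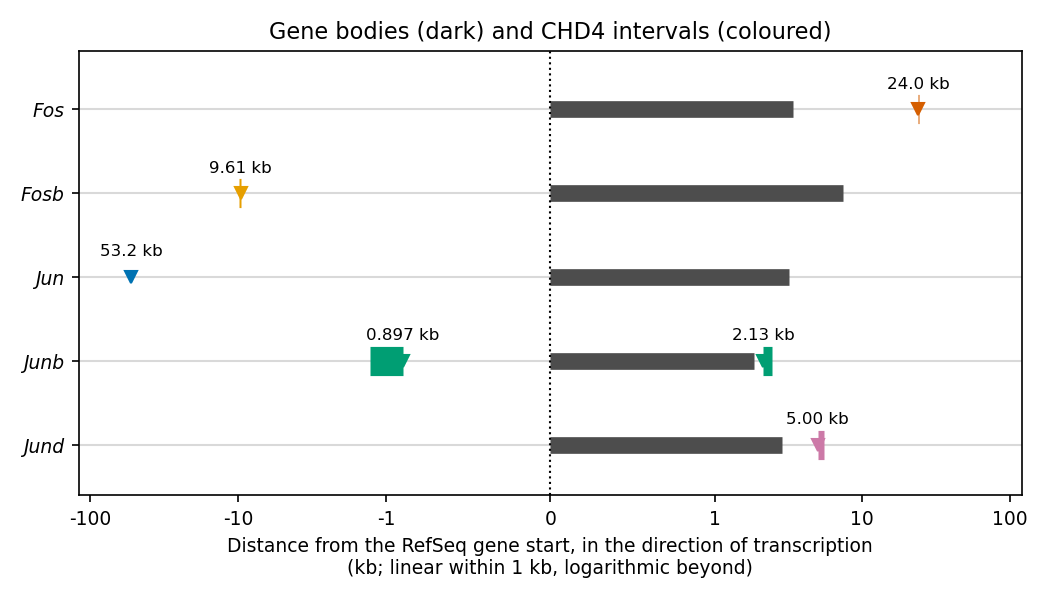
The 5 gene bodies (dark bars) and their 6 CHD4 intervals (coloured blocks, each with a triangle at its edge nearest the start), by distance in kb from the RefSeq gene start in the direction of transcription; the axis is linear within 1 kb and logarithmic beyond. The nearest edge lies from 0.897 kb (Junb, upstream) to 53.2 kb (Jun, upstream), and no block overlaps a gene body.

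The Junb intervals flanked the gene closely. JUNB is a JUN protein that on many promoters activates less strongly than c-JUN. The upstream interval, chr8:84979645-84980032 (388 bases), ended 897 bases before the gene, and the authors class it as promoter within 1 kb. The downstream interval, chr8:84976303-84976621 (319 bases), lay 288 bases beyond the 3′ end; the authors class it as promoter at 2 to 3 kb, since it is 2097 bases from the transcript start. Thus 3023 bases, the whole gene included, separate the pair. Of the 188 protein-coding genes named for 2 or more intervals, 7 had intervals on both sides and none in the body, and Junb alone had both within 1 kb of the body, a pattern that was looked for after the positions were seen. The next interval was 10.3 kb beyond the downstream one, at the promoter of Rnaseh2a, a subunit of the RNase that removes ribonucleotides from DNA, with a fold of 3.76.

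Both Junb intervals had about the same signal. The fold, which is the peak caller's ratio of CHD4 at the summit to the expectation it takes from IgG, and the authors' own value, was 4.69 downstream and 4.44 upstream. On the caller's model these folds correspond to 53 and 52 CHD4 fragments at the summit (exact 95% Poisson intervals 39.7 to 69.3 and 38.8 to 68.2) over IgG expectations of 4.06 and 4.25 fragments. Here and below, CHD4 fragments are given before scaling to the IgG depth, while expectations are at that depth. The caller multiplies CHD4 fragments by 0.429 and adds 1 to both, so the plain ratio of the 2 numbers is not the fold. With the IgG expectation held fixed, counting error alone gives folds of 3.56 to 6.07 and 3.36 to 5.76, so the pair cannot be told apart at this depth. By fold they ranked 963 and 1136 among all intervals, below the list's median of 4.76. By −log10 q, which weighs depth as well as fold, they ranked 327 and 368, at 5.45 and 5.14.

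Jund had the widest and the most significant interval of the 6. JUND is a JUN protein present in many resting cells, and its gene is less dependent on stimulation than Jun and Junb. The interval, chr8:70702742-70703205, spanned 464 bases and ranked 258 by width. It lay 2.13 kb past the 3′ end of Jund and 3.79 kb from the transcript start it was assigned to, and the authors class it as distal intergenic. The fold was 5.53 (4.18 to 7.19 by counting error), from 51 fragments over an expectation of 3.14. It ranked 495 by fold and 184 by −log10 q, at 6.54.

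The Jund interval lies within another gene. In the RefSeq table it is inside Iqcn, which encodes a protein with IQ calmodulin-binding motifs, at chr8:70701321-70717650. The nearest start in the RefSeq promoter table is also that of Iqcn, on the same strand as Jund, 717 bases before the interval. That is within the 1 kb of the authors' promoter class, and by that table the interval would be named for Iqcn and not for Jund. This start, at 70702025, lies inside the Iqcn gene body, whose first base, 70701321, is farther from the interval. The nearest other intervals lay 108 kb and 136 kb away, at the promoters of Isyna1 and Arrdc2.

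Jun had the highest fold of the group, at the interval farthest from its gene. Jun encodes c-JUN, the main partner of FOS and a substrate of the JNK kinases. The interval, chr4:95105415-95105702 (288 bases), lay 53.2 kb upstream of the Jun start, in what the authors' annotation calls intron 2 of 4 of an unnamed transcript. In the RefSeq table the interval is inside Junos, a long non-coding RNA gene of 117 kb (chr4:95052317-95169036) that begins 95 bases from the Jun start and runs away from it. The nearest start in the RefSeq promoter table, at 10602 bases, was also that of Junos. The fold was 5.91 (4.30 to 7.95 by counting error), from 39 fragments over an IgG expectation of 2. It ranked 370 by fold and 290 by −log10 q, at 5.56, and 136 among the 493 intronic intervals, whose median fold was 5.13.

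The Jun interval stood alone on its part of chromosome 4. The nearest other interval was 5677 kb away on the left, named for Gm12610, and 12262 kb away on the right, named for Ndc1. Over the 1848 intervals with a neighbour on their chromosome, the median gap to the nearest other interval was 145 kb, and the Jun interval had the 13th largest. Among the other AP-1 intervals this gap was 3.02 kb for the Junb pair, 18.8 kb for Fosb, 108 kb for Jund and 311 kb for Fos.

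Fos and Fosb had the weakest support. FOS and FOSB have no stable dimers with each other and act through JUN partners. The Fos interval, chr12:85497850-85498048, was 199 bases wide and lay 20.6 kb past the 3′ end of the gene, in intergenic sequence. The authors give 22.9 kb, from a transcript that starts 1021 bases inside the RefSeq gene. It rested on 13 CHD4 fragments (exact Poisson interval 6.92 to 22.2), against 12 at the weakest interval of the list, over an IgG expectation of 0.369. That expectation is near the lowest of the list, 0.346. The Fos interval had a fold of 4.80 (2.90 to 7.69, with the expectation held fixed), at rank 869, while its −log10 q of 1.83 put it at rank 1527. The deposited q was 0.015, the only q above 0.01 among the 6. The gap between Fos and the next AP-1 gene on the chromosome, Jdp2, which encodes a repressor that dimerises with JUN proteins, is 121 kb, and the interval lies in it, 101 kb from Jdp2.

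The Fosb interval, chr7:19319727-19319932, had the lowest fold of the group. It was 206 bases wide and lay 9.61 kb upstream of Fosb, in intergenic sequence between Fosb and Ercc1, a DNA repair endonuclease subunit. Its fold was 3.59 (2.62 to 4.81), from 40 fragments over an expectation of 4.06, at rank 1586 by fold and 1189 by −log10 q (2.56). Ercc1 itself was named for intervals next to it, and the nearer was 18.8 kb from the Fosb interval with a fold of 4.33. Fosb and the downstream interval of Junb had the same IgG expectation, so their difference in fold is one of 40 against 53 fragments, whose counting intervals (28.6 to 54.5 and 39.7 to 69.3) overlap.

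Set side by side, the AP-1 intervals lay near the middle of the list in fold. Their folds ran from 3.59 to 5.91 with a median of 4.74, against a range of 1.75 to 13.6 and a median of 4.76 over all 1849. The counting intervals of all 6 folds overlapped each other and included the list's median, so their order (Jun, Jund, Fos, Junb downstream, Junb upstream, Fosb) is not resolved between neighbours. All but Fos held more fragments than the list's median of 27, over IgG expectations above its median of 1.31; the medians of the 6 were 45.5 and 3.6. Fos, with 13 fragments over 0.369, was below both. A higher IgG expectation asks for more CHD4 fragments before a peak is called, so the larger fragment numbers do not by themselves show more CHD4. Within their annotation classes the 3 distal intergenic intervals ranked 140 (Jund), 234 (Fos) and 425 (Fosb) of 457 by fold.

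**Figure D2:**
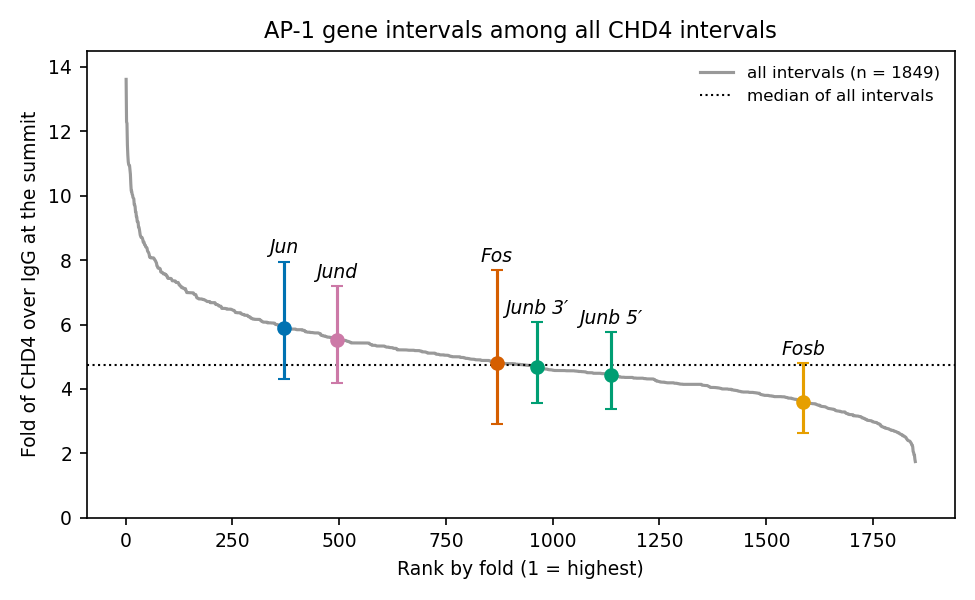
Fold of CHD4 over IgG at the summit against rank for all 1849 intervals (grey line), with the 6 AP-1 intervals as points; bars are exact 95% Poisson intervals of the CHD4 fragments with the IgG expectation held fixed, and the dotted line is the median of all intervals, 4.76. Every bar crosses the median, and the points run from rank 370 (Jun) to rank 1586 (Fosb).

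**Figure D3:**
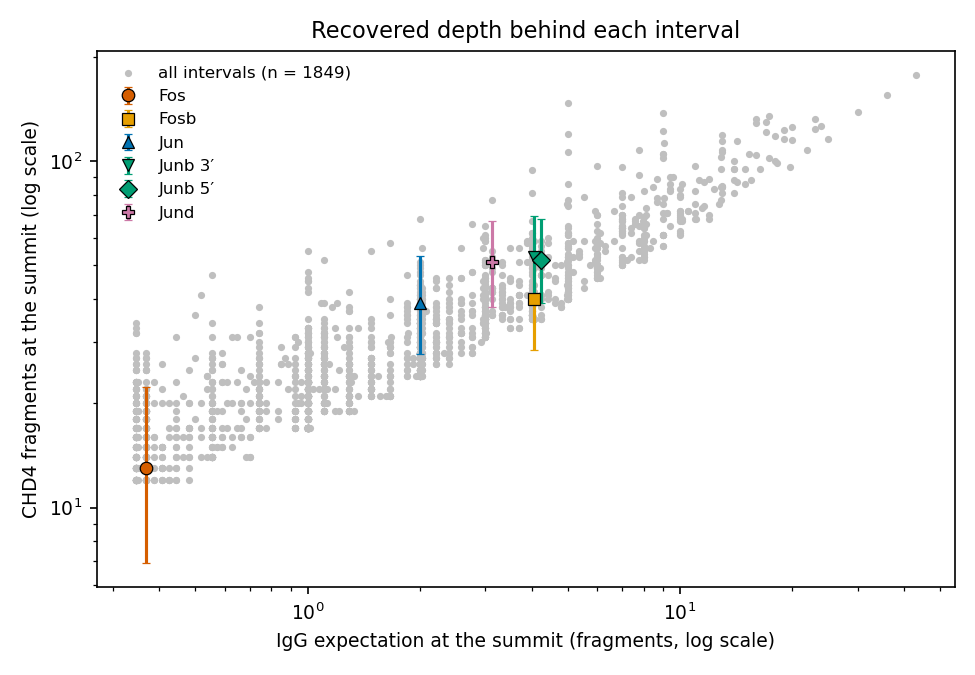
CHD4 fragments against IgG expectation at the summit, both on log scales, for all 1849 intervals (grey) and the 6 AP-1 intervals (coloured, bars are exact 95% Poisson intervals). Fos lies at the lower left with 13 fragments over 0.369, and the other 5 lie between 39 and 53 fragments over expectations of 2 to 4.25. CHD4 fragments are before scaling to the IgG depth and expectations are at that depth, so the ratio of the axes is not the fold.

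Of 17 other AP-1 and bZIP genes, 2 were named for an interval (11.8%, against 6.07% of protein-coding genes): Mafk, a small MAF protein without an activation domain, and Maf, a large one. Mafk had an interval 265 bases from a transcript start, within its gene body, with a fold of 5.46. The interval given to Maf had a fold of 7.14 but lay 374 kb away. The FOS relatives Fosl1 and Fosl2, the repressors Jdp2 and Batf, and the stress-induced Atf3 were not named. Measured without regard to names, the gap from gene body to nearest interval had a median of 9.61 kb over the 5 AP-1 genes, 171 kb over the 17 and 377 kb over all 21883 protein-coding genes. An interval lay within 50 kb of 4 of the 5 and of 6 of the 17, against 15.9% of protein-coding genes. The 5 AP-1 genes were chosen because an interval is named for them, and that interval was the nearest to each. Nothing can therefore be read from their shorter gaps. For Fosl1 the nearest interval was 17.6 kb away and named for AI837181, and for Atf3 it was 41.3 kb away and named for D730003I15Rik. The nearest interval to both Jdp2 and Batf, at 101 kb and 189 kb, was the one named for Fos.

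**Figure D4:**
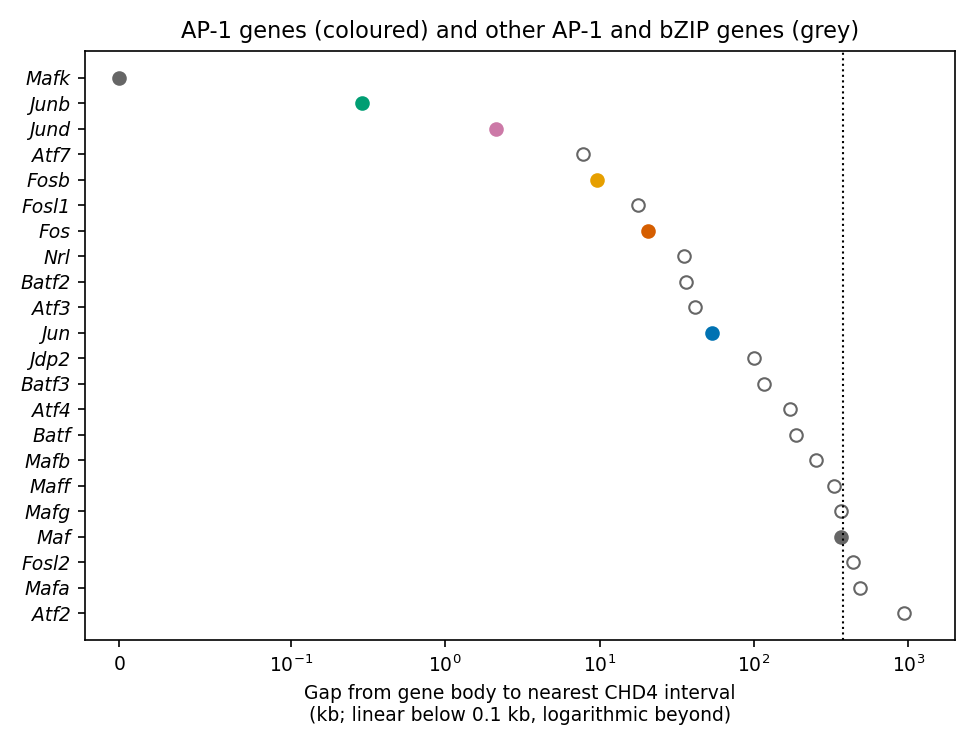
Gap in kb from gene body to the nearest CHD4 interval for the 5 AP-1 genes (coloured) and 17 other AP-1 and bZIP genes (grey); filled points are genes for which that interval is named, open points are genes whose nearest interval is named for another gene, and the dotted line is the median over all protein-coding genes, 377 kb. The axis is linear below 0.1 kb and logarithmic beyond; 0 means overlap, as for Mafk. The 5 AP-1 genes were chosen because an interval is named for them, so their shorter gaps are no result.

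Other immediate early genes were often named in the list. Of 38 such genes 16 were named (42.1%, against 6.07% of protein-coding genes). Of these, 5 were named for an interval within 1 kb of a start, against 2.55% of protein-coding genes: Zfp36, Zfp36l2, Dusp6, Ctgf and Plk2. This list of genes was chosen with earlier results of these data known, so its share is a description only. The others, as with most AP-1 genes, were named for intervals farther off, among them Btg2, an antiproliferative gene, at 3.79 kb with the highest fold of these genes, 7.19, and Dusp1, a phosphatase that shuts off MAP kinases, at 6.17 kb with 4.36. Some were far off: Sgk1 was named only for an interval at 91.5 kb and Gadd45g only for 1 at 122 kb. An interval overlapped the gene body of 5 of the 38, against 4.26% of protein-coding genes. Zfp36 and Zfp36l2 encode proteins that speed the decay of short-lived messenger RNAs, and their promoter intervals had folds of 3.16 and 2.83. Plk2, a kinase of the polo family, had 3.57, and Ctgf, a secreted matrix protein, 5.36. The median fold of the 27 intervals of these genes was 4.26. Egr1, Myc, Ier2 and Nr4a1 were among the 22 not named.

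In the list of signalling to AP-1, 4 of 39 genes were named (10.3%, against 6.07% of protein-coding genes). Mapk3, a kinase of the ERK pathway that activates the factors at the Fos promoter, had a promoter interval with a fold of 4.36. Sos1, which activates RAS, had an interval 293 bases from its start with a fold of 6.00, and another of lower fold at 2.48 kb. Map3k1, a kinase above JNK, had an interval in an intron with 5.06. The JNK genes Mapk8 and Mapk9 were not named. Among factors that bind AP-1 promoters, 6 of 21 were named (28.6%, against the same 6.07%), and 4 of them for an interval within 1 kb of a start, against 2.55% of protein-coding genes. At the promoters of Ets1, Ets2 and Mkl2, a coactivator of SRF, the folds were 4.20, 4.84 and 4.17. Sp1, a factor of GC boxes, had 1.82 at its promoter, which was the second lowest of the whole list at rank 1848. Elk3, a partner of SRF, had an interval in intron 1 with a fold of 6.12. The highest fold of this list, 6.16, was at an interval named for Sp3, 59.2 kb away. Srf and Creb1 were not named. Both lists were chosen with earlier results of these data known, so their shares are a description only.

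Of 31 AP-1 target genes, 5 were named (16.1%, against 6.07% of protein-coding genes), and 2 of these for a promoter interval, against 2.55%: Nqo1, a detoxifying reductase, with a fold of 3.02, and Lmna, a nuclear lamin, with 2.92. Plaur, the urokinase receptor, had an interval at 2.35 kb with 4.23, Vim, an intermediate filament protein, 1 at 4.20 kb with 5.52, and Hbegf, a growth factor, 1 at 22.6 kb with 4. Ccnd1 and Timp1 were not named. None of these shares was tested against that of all protein-coding genes, and the lists were chosen with earlier results of these data known.

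**Figure D5:**
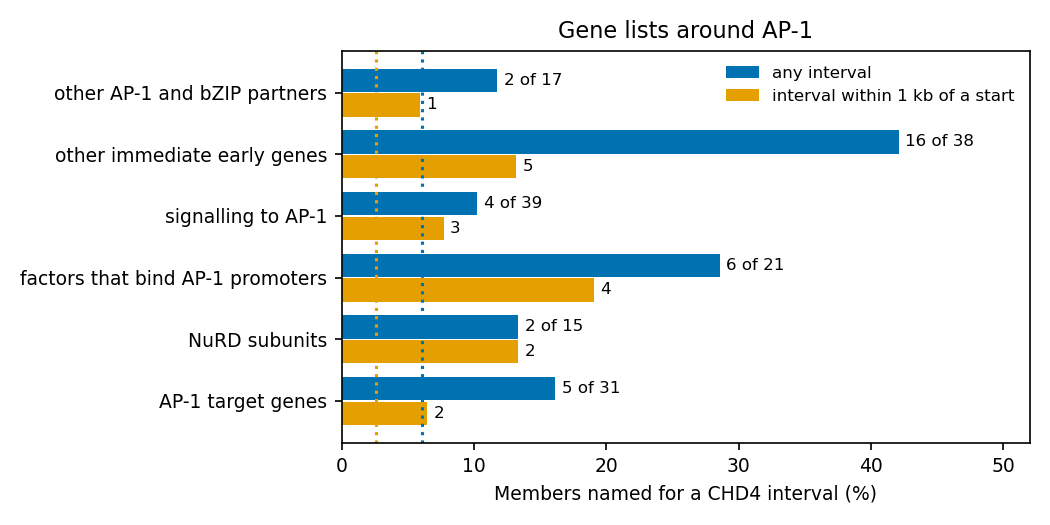
Share of each gene list named for any CHD4 interval (blue) and for an interval within 1 kb of a transcript start (orange), with the numbers of genes; dotted lines are the shares over all protein-coding genes, 6.07% and 2.55%. Immediate early genes other than AP-1 stand highest at 16 of 38, with 5 at a promoter. The lists were chosen with earlier results of these data known, so nothing can be read from their order.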

How the data were processed

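The 2 CHD4 and 2 IgG samples were grouped by their titles. The submitters' processing notes name mm10, MACS2 2.1.2, Bowtie2 2.2.5 and Trim Galore 0.5.0, and the labels do not state how replicates were pooled or duplicate reads handled. The deposited list gives per summit a fold (the ratio FC of CHD4 to IgG), its log2, −log10 p, −log10 q and a score, all by the authors; the largest q was 0.049. Its 2066 summits were collapsed to 1849 intervals, each with the values of its summit of highest fold. The members and gene lists were chosen with earlier results of these data known.

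Fragment numbers were recovered from the fold and the −log10 p under the assumption that the caller scales CHD4 fragments to IgG, adds 1 to both and takes a Poisson p. A scale of 0.429 solved 100% of summits with 1 whole number each, within 0.0005 on −log10 p, so CHD4 had 2.33 times the fragments of IgG. The recovery was tested on simulated summits of known fragment number. These were made under the same assumption, so they cannot check it. They covered the fragment numbers and expectations of the AP-1 intervals but not the highest of the list. Intervals are exact Poisson at 95% and cover counting error only. Gene bodies, starts and promoter windows are RefSeq GRCm38.p6; 5 of 5 members had a window. Every AP-1 gene was named, and of the other lists, genes at a promoter or of highest fold and some others. The values of 1 gene of the signalling list are not reported here. No test of a difference was run. Python 3.11.15, pandas 2.3.3 and scipy 1.17.1 were used.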

Additional observations from a re-analysis of the deposited data

How the results depend on the processing

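Of the 6 AP-1 intervals, 5 had q under 0.01 (the Fos interval did not), 6 were left with each summit counted on its own, and 1 was of the promoter class within 1 kb. None (0) overlapped the body of its gene, whether 1 base or 0.5 of the interval had to overlap. Naming by the nearest RefSeq start, chosen after seeing the data, left 4, as Jun and Jund gave way to Junos and Iqcn.

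Ranks are given as the percent of intervals at or above. By fold, −log10 q and CHD4 fragments they were 47.0, 82.6 and 95.1 for Fos, 20.0, 15.7 and 27.5 for Jun, 85.8, 64.3 and 25.7 for Fosb, and 26.8, 9.95 and 15.8 for Jund. For Junb they were 52.1, 17.7 and 14.2 downstream and 61.4, 19.9 and 14.9 upstream. With each summit ranked on its own, Fos was at 44.2, Fosb at 83.9 and Junb at 49.3 and 58.4; among promoter intervals alone the upstream Junb interval was at 45.5.

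Counting promoter intervals alone, named genes fell to 1 of the 5 AP-1 genes, 1 other bZIP gene, 5 immediate early genes and 2 AP-1 targets. By overlap with the gene body they were 0, 1, 5 and 1, and 3 for the factors that bind AP-1 promoters. With q under 0.01, signalling genes fell from 4 to 2. Over all protein-coding genes the shares were 2.55% by promoter intervals, 4.26% by overlap with the body and 4.77% with q under 0.01. The other 8 counts of named genes in these lists stayed within 1.5 times the count reported. No paired analysis was possible because the list holds 1 call over both replicates, and for the same reason no replicate could be left out. Depth limits each interval to 13 to 53 fragments.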

Other observations

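A binding list does not measure which genes the cells express, so the marker genes of testis cells only show where intervals lay, beside 6.07% of protein-coding genes named. Of 13 markers of undifferentiated spermatogonia 1 was named (7.69%), Nanos3, a translational regulator, at 6804 bases with a fold of 3.40. None of 4 pan germ cell markers and none of 5 Leydig markers was named. Gata4, a Sertoli cell factor, was the 1 of 6 Sertoli markers named (16.7%), at its promoter and in an intron, with folds of 3.54 and 5.74. Of 6 markers of myoid, endothelial and macrophage cells 2 were named (33.3%), Acta2 at 15.9 kb and Cdh5 at 99.3 kb.

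Among the 15 NuRD subunit genes 2 were named (13.3%, against 6.07% of protein-coding genes). Both, the deacetylases Hdac1 and Hdac2, had promoter intervals, against 2.55% of protein-coding genes. This list too was chosen with earlier results of these data known, and its share was not tested. The Hdac1 fold of 9.18, at rank 28, was above that of every AP-1 interval, from 27 fragments over an IgG expectation of 0.369, the expectation also found at the Fos interval with 13 fragments. That expectation is near the lowest of the list, 0.346. The AP-1 intervals other than Fos had more CHD4 fragments than Hdac1, 39 to 53, over expectations of 2 to 4.25. The higher Hdac1 fold does not by itself show more CHD4 there.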
